A study of Mus musculus with 22 samples.

Results

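The transition from the 2-cell stage to the morula was followed in mouse embryos depleted of the histone variant H2A.Z by small interfering RNA (siRNA) knockdown (KD). Every gene with an FPKM (fragments per kilobase of exon, scaled to the mapped fragments of a library) of at least 1 in at least 3 of the 6 KD libraries of these stages was taken, which gave 12690 of the 55335 genes in the table. The series holds 22 RNA-seq libraries of B6D2F1 embryos, made with Smart-seq2 from 15 embryos each and read as paired ends of 150 bp. Pronuclear zygotes were injected 20 to 22 h after human chorionic gonadotropin (hCG) with about 10 pl of a mix of 3 pairs of siRNAs against H2A.Z at 20 µM, and were cultured in G1-plus medium. The KD 2-cell group held replicates 1, 2 and 4, collected 43 to 44 h after hCG, and the KD morula group held replicates 1, 2 and 6, collected at 78 h. The 4 control libraries per stage served as the comparison for the same transition, and the labels do not state what the control embryos received.

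The 2-cell embryo still holds much of the mRNA stored by the oocyte while its own genome is being switched on. By the morula most of that stored mRNA has been degraded, the blastomeres have compacted, and the outer cells start to turn on trophectoderm genes. H2A.Z is a variant of the core histone H2A that is placed around the promoters of genes and is encoded by H2afz and H2afv.

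All values below are FPKM divided by a factor per library, 1.02, 1.13 and 1.03 for the 2-cell libraries and 1.06, 1.00 and 0.957 for the morula libraries. The deposited FPKM summed to 478460, 457386 and 439787 in the 2-cell libraries and to 615745, 616784 and 604910 in the morula libraries. Between 11418 and 11732 genes reached an FPKM of 1 in each 2-cell library, and between 10143 and 10490 did so in each morula library. Low values did not sit on steps of whole reads, with 16.2% to 21.3% near a whole multiple where the tolerance of 0.05 alone gives 10.0%, so reads were not recovered and the depth is unknown. Fold changes are morula minus 2-cell on the log2(FPKM + 1) scale, which understates the change of low genes, with standard errors (SE) and Benjamini-Hochberg adjusted p-values from limma. The p-values measure the spread between libraries, since nothing in the labels says that the libraries of a group came from separate cultures. An FPKM is a share of the RNA captured with oligo-dT primers, so RNA per embryo and poly(A) tail length were not measured. Rises and falls below are relative to the other genes of a library. The factors assume that the typical gene is steady between stages, which was not tested, and 63.6% of the genes tested were called. In bulk libraries of whole embryos, a change in the share of cells that use a gene and a change in RNA per cell cannot be told apart.

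H2afz, the targeted gene, stood at 406, 122.8 and 108 in the KD 2-cell libraries and at 28.6, 25.7 and 30.3 in the KD morulae. Replicate 1 of the 2-cell group was the highest by far, and the stages did not overlap. The change was −2.60 ± 0.42 (SE, n = 3 per stage; limma adjusted p 0.000311), and it was −2.05 when 2-cell replicate 1 was left out. In control embryos, on a scale shared by the 14 libraries of both treatments, H2afz stood at 1262, 1236, 774 and 1070 at the 2-cell stage and at 931, 1244, 1449 and 1417 in morulae. Every KD library was below every control library, and the KD morulae lay further below their controls than the KD 2-cell embryos did. H2afv, which encodes the second H2A.Z protein, went from 95.6, 75.7 and 81.0 to 12.2, 11.01 and 10.3 under KD, a change of −2.80 ± 0.15 (adjusted p 2.11e-07). Its KD 2-cell mean of 90.0 ± 10.7 (SD, n = 3) on the shared scale was close to the control mean of 104 ± 15.4 (SD, n = 4), while KD morulae averaged 11.5 ± 0.989 against 92.9 ± 11.2 in controls. Tmcc1 carries 30.9% of the 50-base words of H2afz in its transcripts, so reads of H2afz and Tmcc1 may be assigned to either. Tmcc1 fell from 19.6, 7.35 and 9.78 to 3.30, 2.12 and 4.17 under KD, and its value is reported as uncertain.

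The libraries matched the stages they are labelled with. The summed value of 6 markers of 2-cell embryos was 425, 427 and 382 at the 2-cell stage and 18.4, 13.7 and 13.0 in morulae, with Tcstv3 the most abundant of them. The summed value of 8 morula markers went from 22.0, 19.5 and 21.0 to 164, 159 and 206, led by Klf5. Genes of cumulus cells, which surround the oocyte, summed to between 4.27 and 10.7, mostly from Amhr2, and Foxl2, Fshr and Ptx3 were listed at 0 in all 6 libraries. Sperm genes summed to at most 0.976, led by Prm2, and fibroblast genes to at most 0.157, led by Thy1. Blood genes summed to 5.31, 8.57 and 4.23 and then to 14.9, 10.6 and 7.66, led by Hba-a1, while Hbb-bs and Hbb-bt were listed at 0. Genes of mature trophoblast summed to 0.796, 0.660 and 0.692 and then to 44.9, 77.9 and 52.4. In the morulae nearly all of this was Prl3b1, a placental lactogen, at 44.4, 77.4 and 52.1 after 0.732, 0.366 and 0 at the 2-cell stage, with Prl3d1 and Tpbpa at 0. These sums are descriptions of the libraries, and no source other than the embryo was tested.

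Between the 2-cell stage and the morula, 4202 genes rose (33.1% of those tested) and 3875 fell (30.5%) at a limma adjusted p under 0.05 and a change of more than 1. The 8077 genes called made up 63.6% of the 12690 tested. The counts of gene lists below are to be read beside these shares, and no list was tested against them. In 4189 of the genes that rose and in 3866 of those that fell, no library of one stage overlapped the other stage, against 10722 (84.5%) of all genes tested. The median change over all genes was 0.12, with a median SE of 0.18. Changes of more than 3 were seen in 667 genes that rose and 757 that fell, and changes of more than 5 in 67 and 156. Of the genes that rose, 1236 were under an FPKM of 1 in all 3 2-cell libraries, and 2102 of those that fell were under 1 in all 3 morula libraries. Such genes enter the test through 1 stage only, so they had to differ. Genes that fell held 26.2%, 26.9% and 26.5% of the summed FPKM of the 2-cell libraries and 2.33%, 2.32% and 2.24% of that of the morulae. Genes that rose went the other way, from 15.9%, 17.9% and 16.0% to 59.8%, 59.4% and 61.5%.

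**Figure D1:**
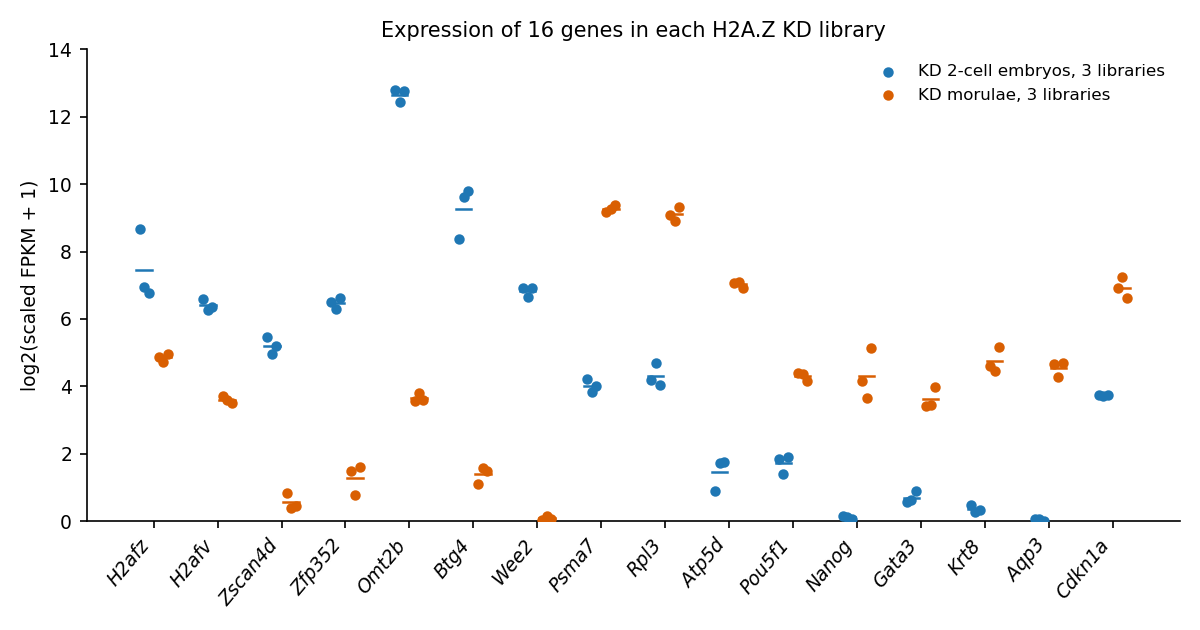
Expression of 16 named genes in each KD library, as log2 of the scaled FPKM plus 1, with 1 point per library and a short line at the mean of the 3 libraries of a stage. The stages do not overlap in any of the 16 genes; Omt2b went from at least 5516 to at most 13.0, and Psma7 from at most 17.7 to at least 572.

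Of the 10 genes with the largest decreases, Omt2b, Omt2a and Tcl1 belong to the list of oocyte genes. Tcl1b1, a member of the Tcl1 family of Akt coactivators, led them with 1591, 1293 and 1380 at the 2-cell stage and 1.28, 1.85 and 1.27 in morulae (−9.17 ± 0.15, adjusted p 1.79e-09). Tcl1, Tcl1b3 and Tcl1b2 fell by 8.93, 8.68 and 8.59 on the log2 scale, so these 4 genes fell together. Tcl1b3 and Tcl1b2 share 34.1% and 24% of their 50-base words with other genes, mostly each other, so the split between them is uncertain. Omt2b and Omt2a, a neighbouring pair expressed in oocytes, were among the most abundant genes of the 2-cell libraries. Omt2b stood at 7038, 5516 and 6933 and then at 10.9, 13.0 and 11.2 (−8.99 ± 0.15). Omt2a went from 5013, 4363 and 4886 to 9.04, 9.28 and 7.36 (−8.96 ± 0.14). The pair share 35.2% and 37.0% of their 50-base words with other genes, mainly each other, so the split between them is uncertain. Oog3 fell by 8.73, Zbed3 by 8.49, C86187 by 8.48 and the long noncoding RNA AA545190 by 8.43, all with morula values of at most 6.03.

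Oocyte genes as a list fell almost without exception. Of 36 tested, 34 fell, and the median was −4.64 against 0.12 over all genes tested. By limma 0 of them were called higher, and 0 were higher at an unadjusted p under 0.05. Bmp15, a growth factor secreted by the oocyte, went from 117, 92.5 and 122.7 to 0.314, 0.597 and 0.410 (−6.27 ± 0.17), and its partner Gdf9 fell by 3.86. H1foo, the oocyte linker histone, fell from 37.5, 29.6 and 42.5 to 0.229, 0.461 and 0.672 (−4.69 ± 0.20). Zp3, the sperm receptor of the zona pellucida, fell by 2.60 and was still at 4.69, 7.25 and 6.32 in morulae. Dppa3 and Mos were the members not called. Dppa3, a maternal factor that protects the maternal genome from demethylation, stood at 7073, 5692 and 4869 and then at 6177, 6557 and 7150, with overlapping stages (0.19 ± 0.18, adjusted p 0.353). Outside the mitochondrial transcripts and their copies it had the highest mean of the morulae. Omt2b had the highest such mean at the 2-cell stage (6495 against 5878 for Dppa3), though Dppa3 was above it in replicates 1 and 2.

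The genes of the 2-cell burst of transcription were switched down. Of 29 such genes tested, 27 fell and the median was −3.20, and Sp110 and Tdpoz2 were not called. By limma 0 were called higher, with 1 higher at an unadjusted p under 0.05. Zfp352, a zinc finger gene of the 2-cell stage, stood at 90.6, 77.8 and 98.0 and then at 1.79, 0.713 and 2.02 (−5.20 ± 0.23, adjusted p 8.58e-08). Zscan4f, Zscan4c and Zscan4d, of a cluster that acts on telomeres in 2-cell embryos and embryonic stem cells, fell by 5.79, 4.77 and 4.64. The 3 Zscan4 genes share 86.8%, 85.5% and 49.6% of their 50-base words with other genes, so each value may hold reads of its relatives. Tcstv3 fell from 216, 268 and 181 to 9.74, 7.204 and 8.34 (−4.55 ± 0.18). The Dux gene itself, listed as Duxf3, did not reach the expression minimum.

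Homeobox genes of the Obox family and their relatives split. Of 12 tested, 9 fell and 1 rose, with a median of −2.94. Obox3 went from 155, 155 and 112 to 0.0638, 0.155 and 0.406 (−6.87 ± 0.19). Obox8 fell by 3.46, with morula replicate 6 at 4.96 below the 15.7 and 22.3 of the other two. Crxos, a homeobox gene expressed in morulae, was the member that rose, from 507, 469 and 449 to 2766, 3992 and 4153 (2.91 ± 0.18, adjusted p 5.44e-07). Obox6 was abundant at both stages, at 472 to 552 and at 730 to 824 (0.58 ± 0.13), within the threshold on the size of the change, and at −0.63 after quantile normalization.

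The subcortical maternal complex sits under the membrane of the egg and is needed for cleavage. Its genes were listed together with Nlrp4, Nlrp9 and Nlrp14 genes, so the counts do not describe the complex alone. Of 15 genes tested, 13 fell and 1 rose, with a median of −3.20. Nlrp2, Nlrp5, Ooep, Tle6 and Zbed3 were among those that fell. Zbed3 was at 711, 709 and 536 before and below 1 after. Nlrp9c fell by 7.21 and Nlrp5, also known as Mater, by 2.96, from 11.03, 8.003 and 10.0 to 0.450, 0.513 and 0.169. Khdc3 rose from 9.85, 8.10 and 6.13 to 153, 152 and 162 (4.14 ± 0.17), but 38.5% of its exonic length overlaps other genes and its value is uncertain. Padi6 was not called.

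Genes that store, deadenylate and clear maternal mRNA fell less uniformly. Of 29 tested, 17 fell, 1 rose and 11 were not called, with a median of −1.39. Btg4, the adaptor that brings the CCR4-NOT deadenylase to maternal mRNA, stood at 332, 786 and 886 and then at 1.15, 1.97 and 1.81 (−7.88 ± 0.34, adjusted p 7.95e-08). Its 2-cell replicate 1 was the lowest of the group, and all 3 were far above the morulae. Cnot7, a catalytic subunit of the same complex, fell by 1.90, its paralog Cnot8 moved by −0.37 and was not called, and the subunit Cnot9 rose by 1.87. The catalytic subunits Cnot6 and Cnot6l and the subunit Cnot3 fell too, and Cnot8, at 83.6, 90.6 and 82.2 in morulae, was at −1.18 with a call after quantile normalization.

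The 10 genes with the largest increases were low at the 2-cell stage, at 3.68 or less in each library. Fbp2, the muscle form of the gluconeogenic enzyme fructose bisphosphatase, went from 0.942, 0.506 and 0.849 to 494, 552 and 757 (8.40 ± 0.19, adjusted p 6.52e-09). Bhmt, which makes methionine from betaine and homocysteine, went from 2.09, 1.90 and 2.66 to 951, 515 and 1346 (8.09 ± 0.30). Morula replicate 2 was the lowest of the 3 for Bhmt and replicate 6 the highest, and all were far above the 2-cell libraries. Ly6a, the surface antigen Sca-1, rose by 7.96, the heparan sulfate proteoglycan Sdc4 by 7.10 and the calcium-binding protein gene S100a11 by 6.99. Vnn1, a pantetheinase, and Eprn rose by 6.66 and 6.62, from values below 0.1. Sycn was listed at 0 in all 3 2-cell libraries and stood at 78.0, 99.3 and 108 in morulae. Sfn, which encodes the 14-3-3 sigma protein of epithelia, rose by 6.43 and Crip2 by 6.39.

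Ribosomal protein genes rose as a block. Of the 79 cytoplasmic ribosomal protein genes tested, 78 rose and the median was 2.77, against 0.12 over all genes, and it was 1.81 after quantile normalization. Rpl22 was the member not called, at 33.2, 41.5 and 63.3 before and 64.8, 72.6 and 85.6 after (0.72 ± 0.23). The limma test called 0 of the list lower, and 0 were lower at an unadjusted p under 0.05. Rpl3 showed the largest rise of the list, from 17.4, 24.8 and 15.3 to 536, 478 and 642 (4.79 ± 0.20, adjusted p 6.40e-08). Rplp0 rose by 2.17, from 365, 477 and 270 to 1554, 1691 and 1625. Ribosomal protein genes have many processed copies in the genome, and Rpl3 and Rplp0 share 35% and 33.1% of their words with other genes, so single values are uncertain. Of all the genes that rose, 22.8% were pseudogenes of any kind, against 14.9% of all genes tested and 10.4% of those that fell.

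Ribosome assembly and tRNA charging were looked at next. Of 40 genes of ribosome biogenesis and RNA polymerase I, 16 rose (40.0%, against 33.1% of all genes) and 4 fell (10.0%, against 30.5%), with a median of 0.74, or 0.32 after quantile normalization. Npm1, the nucleolar chaperone, went from 297, 294 and 247 to 2237, 2402 and 2546 (3.10 ± 0.14), and Nhp2 rose by 1.90, or was at 0.74 without a call after quantile normalization. Polr1e, a subunit of RNA polymerase I, fell by 1.83. Aminoacyl-tRNA synthetases, which charge tRNAs, had 16 of 20 genes higher and 1 lower, with a median of 1.32. Farsa rose by 2.92, Dars by 2.16 and Farsb by 1.65, while Iars was the member that fell, by 1.31. Splicing genes were mixed, with 16 of 43 higher (37.2%, near the 33.1% of all genes) and 3 lower (6.98%). Snrpb, a core protein of the spliceosomal particles, rose from 39.2, 50.05 and 40.9 to 400, 353 and 438 (3.17 ± 0.15), and Srsf4 fell by 1.62, with 43% of its exonic length overlapping other genes.

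Many nuclear genes of the mitochondrion rose as well. Of 77 mitochondrial ribosomal protein genes, 59 rose (76.6%) and the median was 1.79. By limma 0 were called lower, with 2 lower at an unadjusted p under 0.05. Mrps18a went from 1.61, 1.85 and 3.67 to 101, 99.2 and 106 (4.98 ± 0.22), and Mrpl22 rose by 3.15. Nuclear genes of the respiratory chain had 67 of 76 higher, with a median of 2.28. Atp5d, a subunit of the ATP synthase, went from 0.863, 2.30 and 2.40 to 132, 137 and 119 (5.56 ± 0.23, adjusted p 7.26e-08). Cox5a and Cox8a, subunits of cytochrome c oxidase, rose by 1.94 and 1.41, but after quantile normalization they were at 0.74 and 0.25, outside the call. Atp5g1 rose by 1.21, but its sign depended on the scaling, at −0.057 after quantile normalization. The 13 mRNAs of the mitochondrial genome did not follow. The limma test called 0 higher and 0 lower, with 3 higher and 3 lower at an unadjusted p under 0.05, and the median was −0.22, or 0.01 without morula replicate 6. The transcript mt-Cytb stood at 30630, 19930 and 29110 and then at 15290, 16200 and 17270 (−0.68 ± 0.21), without a call.

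Proteasome subunits, which form the main protease of the cell, were among the strongest risers. Of 35 tested, 31 rose, and the median was 2.54. Psma7, a subunit of the catalytic core, went from 17.7, 13.2 and 15.1 to 572, 618 and 660 (5.25 ± 0.15, adjusted p 1.02e-08). Psma6, Psmb6 and Psmb2 rose by 3.43, 3.44 and 2.53. None of these 4 had a 2-cell library within reach of a morula library.

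Metabolic genes were more divided. Ldhb, the heart form of lactate dehydrogenase, went from 204, 168 and 187 to 4.75, 4.25 and 3.82 (−5.15 ± 0.14, adjusted p 1.02e-08), while Aldoa and Pgam1 of glycolysis rose by 2.79 and 2.47. The glucose transporter genes Slc2a1 and Slc2a3 rose by 1.58 and 2.40, and Slc2a3 was lower in morula replicate 1, at 2.46, than in the other two, at 8.01 and 8.85. Of 13 glycolysis genes, 6 rose (46.2%, against 33.1% of all genes) and 3 fell (23.1%, against 30.5%). Pyruvate and tricarboxylic acid cycle genes had 11 of 22 higher and 4 lower, with a median of 1.05, or 0.68 after quantile normalization. Suclg1, a subunit of succinyl-CoA ligase, went from 0.970, 0.310 and 1.47 to 77.2, 77.3 and 87.5 (5.46 ± 0.23), and the pyruvate carboxylase gene Pcx fell by 3.28. Mpc1, a mitochondrial pyruvate carrier, varied within each stage, at 143, 357 and 138 and then at 489, 198 and 600, and was not called (1.01 ± 0.46, adjusted p 0.0652). Leaving out 2-cell replicate 2 or morula replicate 2 brought it past the threshold, at 1.42 and 1.56, while quantile normalization turned it to −0.10. Of 22 genes of sterol and fatty acid synthesis, 6 rose (27.3%) and 3 fell (13.6%), both below the shares of all genes. Msmo1 rose by 4.81 and Fdps by 2.43, and Hmgcs1, the enzyme ahead of them in the same pathway, fell by 1.96.

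**Figure D2:**
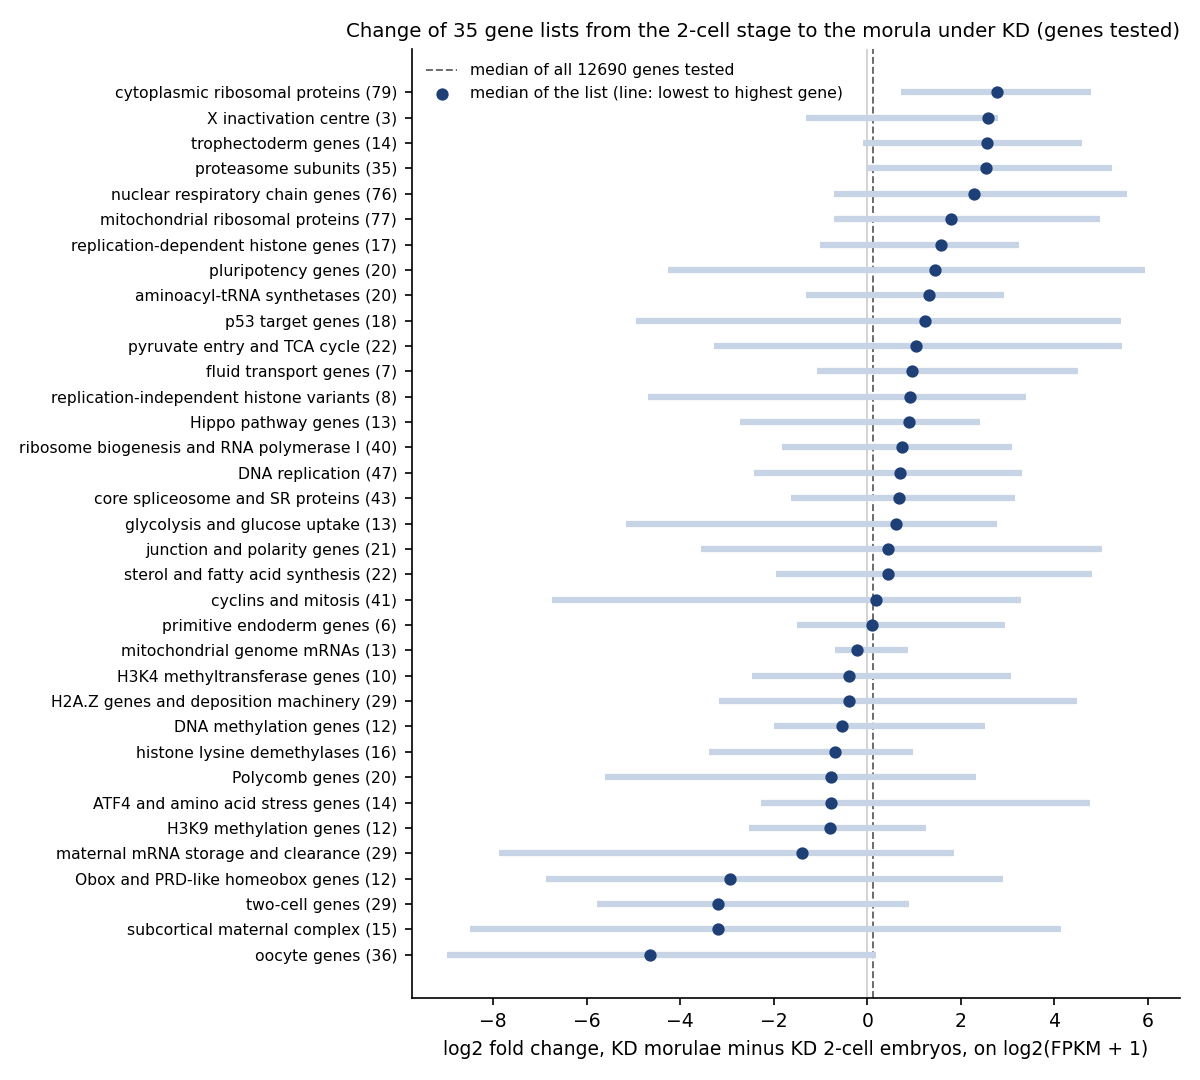
Median log2 fold change (morula minus 2-cell, on FPKM + 1) of each of the 35 gene lists under KD as a point, with a line from the lowest to the highest gene and the number of genes tested in brackets. Medians run from −4.64 for oocyte genes to 2.77 for cytoplasmic ribosomal proteins around the 0.12 of all genes (dashed); cyclins and mitosis, at 0.19, take the other sign after quantile normalization (−0.56).

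Promoters were read for 3 lists that rose with at least 80% of their genes in the promoter table, which holds 300 bases each on GRCm38.p6 from RefSeq. A promoter was found for 68 of 77 mitochondrial ribosomal protein genes (88.3%), 63 of 76 respiratory chain genes (82.9%) and 29 of 35 proteasome genes (82.9%). For all protein-coding genes tested the match was 78.4% of 9352, for cytoplasmic ribosomal protein genes 73.4%, for oocyte genes 66.7% and for 2-cell genes 51.7%, so checks over those sets are void. The motif CCGGAAG, bound by Ets-family factors such as GABPA, was sought on both strands. It was held by 24 of the 68 mitochondrial ribosomal promoters (35.3%), 15 of the 63 respiratory chain promoters (23.8%) and 9 of the 29 proteasome promoters (31.0%). GGGCGG, the core of the Sp1 site, was held by 48.5%, 38.1% and 62.1% of these lists, and CCAAT, bound by NF-Y, by 39.7%, 41.3% and 37.9%. Of all 32851 promoters of the table, 8.86%, 35.7% and 37.4% held the 3 motifs. For the 7331 protein-coding genes tested that had a promoter, these shares were 20.9%, 64.0% and 40.6%. That set falls short of the match asked for here, so it is given as a description only. The table also holds genes not expressed here and is no background for genes that are, so nothing about the lists is drawn from these shares, and no binding was measured in these libraries. The promoters of the gene with the largest rise in each list lie at chr2:180042415-180042714 on the minus strand (Psma7), chr17:46110754-46111053 on the plus strand (Mrps18a) and chr10:80142025-80142324 on the plus strand (Atp5d). They are given with these 3 motifs in capitals on either strand, and Atp5d held none of them in the first of its 2 promoters.
Psma7: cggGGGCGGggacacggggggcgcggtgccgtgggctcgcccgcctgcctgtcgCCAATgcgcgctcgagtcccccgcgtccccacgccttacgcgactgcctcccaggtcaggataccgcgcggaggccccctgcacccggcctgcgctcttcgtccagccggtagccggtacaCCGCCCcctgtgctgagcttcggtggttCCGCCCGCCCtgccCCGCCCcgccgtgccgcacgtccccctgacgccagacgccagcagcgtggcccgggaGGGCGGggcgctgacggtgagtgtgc
Mrps18a: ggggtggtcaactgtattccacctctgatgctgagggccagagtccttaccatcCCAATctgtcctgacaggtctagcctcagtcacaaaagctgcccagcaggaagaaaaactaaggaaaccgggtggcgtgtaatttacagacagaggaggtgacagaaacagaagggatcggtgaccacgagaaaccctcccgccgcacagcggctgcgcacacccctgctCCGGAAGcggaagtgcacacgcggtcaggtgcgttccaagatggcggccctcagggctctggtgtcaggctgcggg
Atp5d: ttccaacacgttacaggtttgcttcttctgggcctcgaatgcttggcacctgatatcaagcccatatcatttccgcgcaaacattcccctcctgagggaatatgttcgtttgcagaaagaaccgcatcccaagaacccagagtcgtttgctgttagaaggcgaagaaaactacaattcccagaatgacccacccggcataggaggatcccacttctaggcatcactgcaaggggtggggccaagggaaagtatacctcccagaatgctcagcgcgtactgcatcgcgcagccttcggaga

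DNA replication genes moved in both directions. Of 47 tested, 17 rose (36.2%, against 33.1% of all genes) and 5 fell (10.6%, against 30.5%). The median was 0.71, or 0.47 after quantile normalization. Rfc4, of the clamp loader, went from 7.84, 7.06 and 4.15 to 75.5, 56.3 and 82.5 (3.32 ± 0.23), and the ribonucleotide reductase gene Rrm2 rose by 2.54. Gmnn, which encodes the replication licensing inhibitor geminin, fell by 1.14 from 794, 684 and 608, and Pole4 by 1.25. Gins2 fell by 2.41, with 67.3% of its exonic length overlapping other genes. Cyclins and genes of mitosis had 6 of 41 higher (14.6%) and 9 lower (22.0%), both below the shares of all genes. The sign of their median of 0.19 depended on the scaling, at −0.56 after quantile normalization and −0.03 in the fit over all 22 libraries. Wee2, the oocyte kinase that holds Cdk1 inactive, went from 120, 100.5 and 120 to 0.0251, 0.123 and 0.0491 (−6.74 ± 0.15). Pttg1, the securin gene, fell by 2.20, and Cdk4, a kinase of the G1 phase, rose by 3.29. Ccnb1, the mitotic cyclin gene, stood at 562, 490 and 437 and then at 611, 747 and 672, without a call (0.45 ± 0.15), and turned negative after quantile normalization. Wee2 and Pttg1 thus fell while Cdk4 rose.

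Histone genes other than H2A.Z rose more often than they fell. Only 17 of 67 replication-dependent histone genes reached the minimum, of which 11 rose and 1 fell. The libraries were primed with oligo-dT, which needs a poly(A) tail, and the tails of these mRNAs were not measured. These counts may therefore not follow the levels of the mRNAs. Hist1h2ap and Hist1h2ao rose by 2.00 and 1.99, but 93.1% and 93.5% of their words are shared with other histone genes, and the single values are uncertain. Most of the 11 were Hist1h2a genes, with 78.9% of words shared for Hist1h2ag, so they may not be separate observations. Hist1h2ae went from 0.777, 0.809 and 0.705 to 9.88, 17.3 and 22.5 (3.25 ± 0.27). Of 8 replication-independent variants, 4 rose and 1 fell. H2afx, the variant phosphorylated at DNA breaks, went from 3.05, 3.81 and 3.59 to 51.5, 55.6 and 34.5 (3.40 ± 0.20, adjusted p 3.89e-07). H3f3a rose by 1.47, with morula replicate 2 at 870 above the 293 and 388 of the other two, and was at 0.31 without a call after quantile normalization. H3f3b, which encodes the same protein, was not called (−0.20 ± 0.20), but was at −1.27 with a call after that scaling. H2afx and H2afz, variants of the same core histone, moved in opposite directions under KD, where H2afz was the target of the siRNA. In controls, in the fit over 14 libraries, H2afx changed by 2.77 and H2afz by 0.22.

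Pluripotency genes were divided. Of 20 tested, 10 rose (50%, against 33.1% of all genes) and 3 fell (15%, against 30.5%), with a median of 1.46, while Esrrb and Sox2 did not reach the minimum. Pou5f1, which encodes Oct4, went from 2.63, 1.65 and 2.76 to 20.1, 19.8 and 17.1 (2.59 ± 0.19, adjusted p 1.32e-06). Nanog went from 0.121, 0.0904 and 0.0512 to 16.9, 11.6 and 34.0 (4.19 ± 0.33, adjusted p 2.25e-06). Morula replicate 6 was the highest for Nanog, and no morula library overlapped the 2-cell libraries. Tdgf1, a Nodal coreceptor, rose by 5.94, from values of at most 0.373 to 48.6, 59.7 and 108. Dppa5a and Dppa2 rose by 2.48 and 2.79, and Dppa4, the partner of Dppa2, was within the size threshold (0.82 ± 0.13), at 203 to 253 before and 397 to 403 after, and took the other sign after quantile normalization (−0.34). Klf17, a factor of early cleavage, fell from 65.7, 104 and 104 to 3.68, 4.36 and 3.16 (−4.26 ± 0.21), and its relative Klf5 rose by 2.56.

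Trophectoderm genes rose. Of 14 tested, 11 rose, and the median was 2.57. The limma test called 0 lower, and 0 were lower at an unadjusted p under 0.05. Krt18 and Krt8, the paired keratins of the first epithelium, went from 0.959, 0.618 and 1.08 to 41.9, 36.9 and 56.6 (4.60 ± 0.20) and from 0.397, 0.221 and 0.252 to 23.3, 20.8 and 34.9 (4.38 ± 0.21). Gata3 rose by 2.92 and Tead4, the Hippo pathway factor upstream of the trophectoderm, by 2.42. Cdx2 did not reach the minimum, and Tfap2c was at the size threshold (1.00 ± 0.17) without a call. Leaving out any 1 library other than 2-cell replicate 4 brought Tfap2c past the threshold, at 1.02 to 1.09, as did a pseudocount of 0.1 (1.09). Of the 6 primitive endoderm genes tested, 2 rose (33.3%, near the 33.1% of all genes), 1 fell (16.7%, against 30.5%) and 3 were not called. Sox7, Sox17, Pdgfra, Foxa2 and Hnf4a were among the listed genes that did not reach the minimum. Gata6 went from 0.577, 0.338 and 0.197 to 8.73, 9.19 and 10.9 (2.96 ± 0.18) and Nid1 rose by 2.80. Gata4 fell by 1.49, from 1.09, 1.47 and 5.54 to at most 0.185, and was at −0.94 without a call with the replicate block. Krt8, Krt18 and Gata3 were thus present in all 3 KD morula libraries, while Gata2, Krt7 and Krt19 did not reach the minimum.

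Genes of junctions, polarity and fluid transport, which serve compaction and the later blastocoel, were divided. Of 21 junction and polarity genes, 8 rose (38.1%, against 33.1% of all genes) and 4 fell (19%, against 30.5%). Cldn7, a tight junction claudin, went from 0.946, 1.18 and 0.788 to 47.6, 65.0 and 80.6 (5.02 ± 0.21), F11r rose by 2.83 and Cdh1, which encodes E-cadherin, by 1.62. Pard3, of the apical polarity complex, fell by 3.56, from 45.5, 42.6 and 36.8 to 1.88, 2.48 and 3.65. Fluid transport genes had 3 of 7 higher (42.9%) and 1 lower (14.3%). Aqp3 and Aqp9, water channels, rose by 4.50 and 2.25. Aqp11 fell by 1.08, and by 0.91 without morula replicate 6, which put it outside the call. The sodium pump subunit gene Atp1b1 was just inside the threshold (0.95 ± 0.16) and was called without morula replicate 1 or 6, at 1.04 and 1.06. Of 13 Hippo pathway genes, 6 rose (46.2%) and 4 fell (30.8%). Yap1, the coactivator of Tead4, went from 29.3, 32.3 and 26.3 to 3.39, 3.44 and 3.95 (−2.72 ± 0.15), opposite to Tead4 itself.

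The machinery that deposits and removes H2A.Z did not move as a unit. Of 29 genes tested, with H2afz and H2afv among them, 5 rose (17.2%) and 6 fell (20.7%), with a median of −0.40, against 33.1% and 30.5% of all genes. Ruvbl2, an ATPase of the SRCAP, TIP60 and INO80 complexes, went from 6.86, 7.41 and 7.35 to 177, 191 and 181 (4.49 ± 0.12, adjusted p 1.02e-08). Its partner Ruvbl1 was not called (−0.74 ± 0.14), at 78.3, 69.6 and 75.7 before and 39.6, 44.7 and 49.0 after, so the pair diverged. Ruvbl1 was called lower, at −1.37, after quantile normalization. Mbtd1, a reader subunit of TIP60, fell by 3.18. Srcap, the ATPase that exchanges H2A for H2A.Z, stood at 4.27, 2.58 and 2.14 and then at 1.16, 1.03 and 0.939 (−0.93 ± 0.21, adjusted p 0.00215), within the size threshold. It passed the threshold without 2-cell replicate 2 or 4, at −1.01 and −1.12. It also did so with a pseudocount of 0.1 (−1.38), with the replicate block (−1.05) and in the fit over 22 libraries (−1.10). Of the exonic length of Srcap, 65.0% overlaps other genes. Anp32e, the chaperone that removes H2A.Z, was not called (−0.61 ± 0.19).

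Genes of chromatin modification fell at shares near the 30.5% of all genes or somewhat above it. Of 20 Polycomb genes, 8 fell (40.0%) and 4 rose, with a median of −0.78. Bmi1, of the Polycomb repressive complex 1, went from 282, 304 and 281 to 4.74, 5.58 and 4.65 (−5.60 ± 0.13, adjusted p 7.71e-09), and Pcgf1, which can take its place, fell by 2.44. Jarid2, a cofactor of the Polycomb repressive complex 2, rose by 2.32 and Rbbp7 by 1.31, the latter at 0.15 without a call after quantile normalization. Of 10 genes of H3K4 methylation, 2 rose and 3 fell (30.0%). Ash2l, a core subunit, went from 7.29, 9.85 and 7.76 to 69.5, 78.8 and 83.5 (3.08 ± 0.16), and the methyltransferase gene Kmt2c fell by 2.46. Wdr5 rose by 1.02, and by 0.92 and 0.94 without 2-cell replicate 1 or 4, below the threshold, and was at 0.46 after quantile normalization. Genes of H3K9 methylation had 5 of 12 lower (41.7%), led by Suv39h2, which fell by 2.53, and Ehmt2 rose by 1.25. Of 16 histone demethylase genes, 6 fell (37.5%), and Kdm7a went from 31.3, 28.8 and 32.0 to 2.24, 2.00 and 1.82 (−3.39 ± 0.15). The limma test called 0 of the demethylases higher, with 2 higher at an unadjusted p under 0.05. Of 12 DNA methylation genes, 3 rose and 4 fell (33.3%). Tet3, the oxidase of the zygote, fell by 1.99 to below 0.1, and Tet2 rose by 2.51. Dnmt3l, the cofactor of the de novo enzymes, rose by 2.42 and Dnmt3b by 1.51.

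Targets of p53, the guardian of genome integrity, were divided, with 9 of 18 higher and 4 lower and a median of 1.23. Cdkn1a, the cyclin-dependent kinase inhibitor p21, went from 12.5, 12.1 and 12.5 to 121, 150 and 98.2 (3.19 ± 0.17, adjusted p 2.28e-07). Ccng1 went from 2.26, 2.06 and 3.67 to 52.9, 59.8 and 54.1 (3.97 ± 0.19), and Perp, a desmosome protein gene, rose by 5.44. The proapoptotic gene Bax rose by 2.89. Rrm2b, the p53-dependent subunit of ribonucleotide reductase, fell from 51.1, 48.0 and 58.2 to 0.651, 0.806 and 0.724 (−4.95 ± 0.15), and Mdm2, whose product degrades p53, was not called (−0.47 ± 0.14). The other targets that fell were Gadd45a, Trp53inp1 and Sesn2. Among 14 genes of the ATF4 and amino acid stress list, 4 rose and 4 fell (28.6% each), both below the shares of all genes. Phgdh and Psat1, of serine synthesis, rose by 4.76 and 2.68, and Aldh18a1, of proline synthesis, fell by 2.27.

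Xist, the noncoding RNA that coats the inactive X chromosome, went from 0.0904, 0.0713 and 0.279 to 9.16, 6.14 and 3.38 (2.58 ± 0.28, adjusted p 1.91e-05). Its antisense partner Tsix rose by 2.79, but 32.6% of the exonic length of Tsix overlaps other genes, and reads of Xist and Tsix cannot be told apart without strand. Rlim, the X-linked activator of Xist, fell by 1.31, from 41.1, 41.5 and 47.9 to 16.7, 16.4 and 17.7. Of the 493 X-linked genes tested, 135 rose (27.4%) and 182 fell (36.9%), against 33.1% and 30.5% of all genes. Of abundant X-linked genes, Hprt, of purine salvage, stood at 539, 520.0 and 587 and then at 3987, 3709 and 3830 (2.81 ± 0.13), and Sat1, of polyamine breakdown, rose by 2.24. Long noncoding genes of the lincRNA class made up 7.64% of the genes that fell and 1.76% of those that rose, against 3.86% of all genes tested. Median exonic length was 2044 bases for genes that rose, 3212 for genes that fell and 3564 for genes not called, and whether FPKM of short and long genes were affected alike was not tested. Some named genes are uncertain because reads can be shared. Bhmt, S100a11, Phgdh, Pgam1, Ldhb, Fdps, Dppa2, Dppa4, Dppa5a, Krt8, Npm1, H3f3a, Ruvbl1, Mpc1, Mrpl22, Ccnb1, Obox3, Sp110, Tcstv3 and Hist1h2ae have between 20.2% and 49.4% of their 50-base words in transcripts of other genes, and the exons of Fdps and Mpc1 overlap other genes over 26.7% and 23.1% of their length.

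The same transition in control embryos was close to that under KD. Of the 4202 genes that rose under KD, 4195 also had a positive change in controls, and of the 3875 that fell, 3856 had a negative one. In the fit over 14 libraries the genes that rose had medians of 1.91 under KD and 1.87 in controls, and the genes that fell had medians of −1.97 and −1.90. The difference between the KD change and the control change was tested over 14605 genes. It was called higher in 56 genes (0.383%) and lower in 126 (0.863%), together 182 (1.25%), while 2148 genes had an unadjusted p under 0.05. Of the 126 genes, 31 did not reach the expression minimum in the KD libraries and entered this test only with the help of control libraries, against 0 of the 56. Genes that entered only with the help of KD libraries were not counted, so how the filter treated the 2 directions is not known. These counts rest on few libraries. They were 26 and 67 without KD 2-cell replicate 1, 35 and 81 without KD 2-cell replicate 4, 32 and 52 without KD morula replicate 1, and 29 and 57 without KD morula replicate 2. Among control libraries they were 35 and 93 without 2-cell replicate 2, 78 and 203 without morula replicate 1, 37 and 73 without morula replicate 7, and 45 and 71 without morula replicate 8. Of the 182 genes, 59 were called in all 14 fits that left out 1 library. With the replicate number as a block, 2 genes were called higher and 1 lower, and only H2afv of the 182 was still called. Without a filter the counts were 24 and 48.

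Genes with a lower change under KD included both H2A.Z genes. The change of H2afv was −2.86 under KD and −0.16 in controls, a difference of −2.71 ± 0.22 with the smallest adjusted p of this test, 3.02e-05. The change of H2afz was −2.66 and 0.22, a difference of −2.88 ± 0.48 (adjusted p 0.00890). Both differences were called in each fit that left out 1 library. That of H2afz was not called without a filter (limma adjusted p 0.0536) or with the replicate block (−2.73, limma adjusted p 0.112). Smim11, which encodes a small membrane protein, went from 35.02, 29.3 and 37.5 to 2.87, 2.61 and 2.09 under KD, while control morulae stood at 11.5, 11.9, 21.2 and 20.1 (difference −2.52 ± 0.32, adjusted p 0.00370). Magea8 and Cnpy2 were below 1 in all 6 KD libraries and so outside the KD test, and control morulae reached 4.64, 6.24, 13.4 and 13.3 for Magea8 and 4.49, 5.08, 7.74 and 7.46 for Cnpy2. Those libraries brought them into the test, so they had to differ. Their differences were −2.78 and −2.21, and Magea8 shares 41.5% of its words with other genes. Nanog rose in both treatments, by 4.22 under KD and by 6.37 in controls, where the morulae stood at 50.6, 95.8, 108.7 and 143. The difference of −2.15 ± 0.45 (adjusted p 0.0300) was not called without KD morula replicate 1 or 2, any 1 of the KD 2-cell libraries, control 2-cell replicate 2 or 5, or control morula replicate 7 or 8, with values between −2.17 and −1.82. Of the 126 genes, 53 had positive changes in both treatments, smaller under KD, 42 had a positive change in controls and a negative one under KD, and 31 had negative changes in both.

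Genes with a higher change under KD included 4 of the 18 genes tested of the p53 list, Cdkn1a, Ccng1, Plk2 and Btg2. Over all genes tested the share was 56 of 14605 (0.383%). Control morulae held 42.3, 30.2, 37.3 and 38.1 of Cdkn1a, below each of the KD morulae, and the change was 3.14 under KD against 1.52 (difference 1.62 ± 0.29, adjusted p 0.0148). After quantile normalization the difference was 1.41 and was not called. For Ccng1 the changes were 3.94 and 2.76 (difference 1.18 ± 0.28, adjusted p 0.0444), and the call was lost in 12 of the 14 fits that left out 1 library, all but those without KD 2-cell replicate 4 and without control morula replicate 1, with the difference between 1.04 and 1.23. Plk2 and Btg2 rose under KD and had changes of 0.25 and −0.12 in controls, with differences of 1.56 and 1.62 in the fit over 14 libraries. Their calls were lost in 7 and 9 of the 14 fits that left out 1 library. Over all 14 fits, with the call or without, their differences lay between 1.35 and 1.88. The median difference of the p53 list was 0.74 against 0.003 over all genes, and the other lists held at most 2 genes with a called difference. The lists were chosen with earlier results of these data known, and Plk2 and Btg2 were named after their values were seen. These shares and medians are therefore descriptions, and nothing about p53 is drawn from them. Upp1, uridine phosphorylase, stood at 5.54, 4.22 and 7.82 in KD morulae and was at 1.79, 0.661, 0.460 and 1.24 in control morulae (difference 1.97 ± 0.31, adjusted p 0.00625). Npy, neuropeptide Y, and Nkx2-9, a homeobox gene, reached 10.7, 15.7 and 16.8 and 4.21, 4.98 and 4.18 in KD morulae, with differences of 1.88 and 1.86. With a pseudocount of 0.1 these were 1.81 and 2.90 and were not called. Nkx2-9 was above 1 only in the KD morulae and in control morula replicate 1, at 1.155. The KD morulae brought it into the test, so it had to differ. Of the 56 genes, 25 had positive changes in both treatments, 22 had negative changes in both and 9 changed sign.

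**Figure D3:**
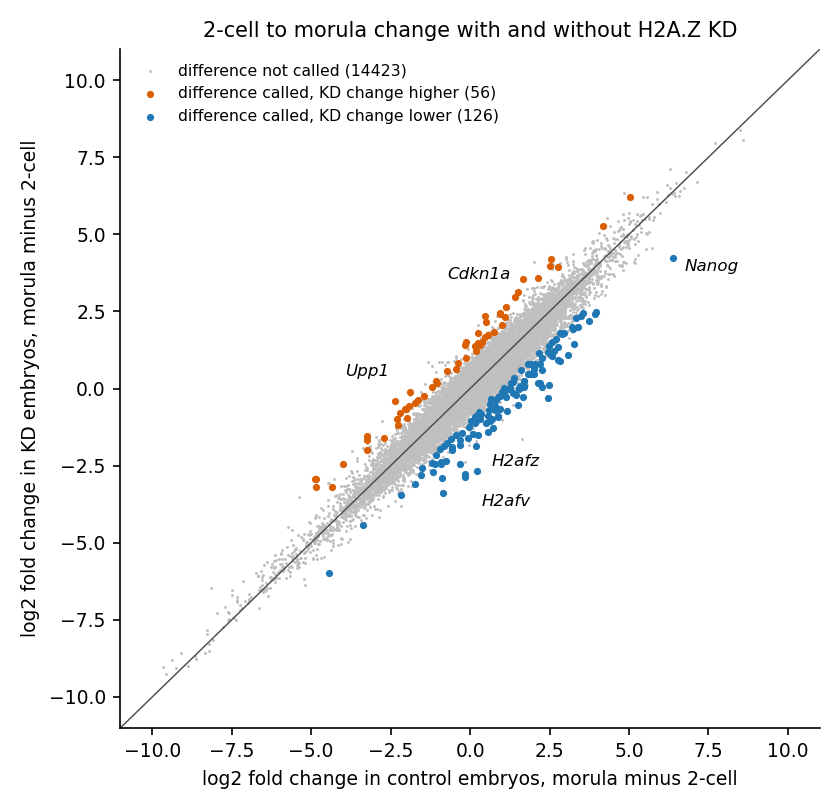
Change from the 2-cell stage to the morula in control embryos (x axis) and KD embryos (y axis) for the 14605 genes tested in both, as log2 fold change on FPKM + 1 from the fit over 14 libraries, with the line of equal change. Genes lie along the line; the 56 genes with a higher KD change (orange) and the 126 with a lower one (blue) include Cdkn1a (3.14 against 1.52) and H2afz (−2.66 against 0.22).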

How the data were processed

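Smart-seq2 libraries of 15 embryos each, with 16 to 18 cycles of preamplification, were compared between the 2-cell stage (3 KD libraries) and the morula (3 KD libraries), with 4 control libraries per stage as background. Per the labels, the authors aligned reads to mm10 with STAR, computed FPKM with StringTie 2.1.4, and counted reads with featureCounts 1.6.2 for their own DESeq2 1.30.1 tests. The deposited FPKM table was used. All 22 value columns matched a sample.

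FPKM were divided by a library factor, the median ratio to the geometric mean over genes above 0 in all libraries of a fit, and log2(value + 1) was fitted with limma 3.58.1 in R 4.3.3 (eBayes with trend), without covariates. The expression filter kept genes reaching 1 FPKM in 3 or more libraries. A gene was called at a Benjamini-Hochberg adjusted p under 0.05 and a log2 fold change beyond 1. The KD fit used 6 libraries. The change under KD minus the change in controls was fitted over the 14 libraries of both treatments with their own factors. The script was tested on simulated data with known changes. Depth per library is unknown, so no counting limit is given.

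The members and 35 gene lists were chosen with earlier results of these data known. Named genes were (a) the 10 largest called increases and decreases without overlapping libraries or clone names, (b) in each list the 3 most abundant members and the called members with the largest increase and decrease, (c) the 5 largest called differences from controls each way, and (d) a fixed list of stage, lineage and target genes. Rpl22, Hprt, Sat1, Plk2 and Btg2 were chosen after their values were seen. Shared sequence is the percent of a gene's 50-base words found in transcripts of other genes. Promoters came from a RefSeq table on GRCm38.p6. Alternatives were deposited FPKM, quantile normalization, another pseudocount, other filters, a replicate block, a covariate for the range of replicate numbers, a fit over 22 libraries, and leaving out each library. Blastocyst libraries were left out because they hold another stage.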

Additional observations from a re-analysis of the deposited data

Results flagged for a closer look

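The change from the 2-cell stage to the morula differed between KD and control embryos, by limma's test of the difference, for 13 of the genes named by rule, and for Plk2 and Btg2, both picked with the results in view. Of the 13, all but Cdkn1a, Ccng1 and Nanog were among the largest called differences, which is a naming rule, so their number says nothing. H2afz, H2afv and Npy were on the fixed list as well. The KD change minus the control change was −2.88 for H2afz, −2.78 for Magea8, −2.71 for H2afv, −2.52 for Smim11, −2.21 for Cnpy2 and −2.15 for Nanog, with adjusted p-values of 0.00890, 0.00453, 3.02e-05, 0.00370, 0.00370 and 0.0300. It was 1.97 for Upp1, 1.88 for Npy, 1.86 for Nkx2-9, 1.77 for Cxcl16, 1.66 for Dcxr, 1.62 for Cdkn1a and 1.18 for Ccng1, with adjusted p-values of 0.00625, 0.0149, 0.00452, 0.0444, 0.0481, 0.0148 and 0.0444. The call of Cxcl16 was lost in 13 of the 14 fits that left out 1 library, all but the one without control 2-cell replicate 1, with differences from 1.51 to 1.99. The call of Dcxr was lost in 11 of them, all but those without control 2-cell replicate 5, control morula replicate 1 or KD morula replicate 6, with differences from 1.43 to 1.76. Ccng1 and Nanog lost theirs in 12 and 9 of the 14. The differences of Plk2 and Btg2 were 1.56 and 1.62, and their calls were lost in 7 and 9 of the 14. Magea8 and Cnpy2 passed the filter through control libraries, and Nkx2-9 through KD morulae. With the replicate block only H2afv kept its call.

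A single library lay far from the rest of its group in 3 of 26 groups of 4 control libraries examined for the 13 genes, where chance gives about 1 in 20 for normal values. That rate does not hold for values near 0, and 2 of the 3 were in control 2-cell replicate 4. Nkx2-9 stood at 1.155 in control morula replicate 1 against 0.262, 0.277 and 0.346 in the others. Nkx2-9 also stood at 0.238 in control 2-cell replicate 4 against 0 in the others, and Nanog stood at 0.361 in the same library against 0.0608, 0.0773 and 0.0862. All these values are low, and their cause was not tested.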

How the results depend on the processing

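The counts under KD were 4202 genes higher and 3875 lower, and in the fits that left out 1 library, over the same genes, they ran from 4103 to 4377 and from 3747 to 3962. Of the 8077 genes called, 7357 were called in all 6 of those fits. The counts were 4087 and 4039 on deposited FPKM, 4084 and 3871 after quantile normalization, 4689 and 4376 with a pseudocount of 0.1, 4258 and 4078 over 35707 genes without a filter, and 3871 and 4293 in the fit over all 22 libraries. That fit shifted the median of all genes by −0.17. An FPKM minimum of 5 left 7449 genes with 2987 higher and 2220 lower, the only setting with a count beyond 1.5 times the reported one, since fewer genes were tested. With limma's treat at a threshold of 1, 3144 and 2863 were called.

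The difference between KD and controls was less steady. Its counts of 56 higher and 126 lower became 54 and 204 on deposited FPKM, 51 and 92 after quantile normalization, 40 and 92 with a pseudocount of 0.1, 24 and 48 without a filter, 44 and 89 at an FPKM minimum of 5, and 74 and 161 after adding a covariate for high and low replicate numbers. Leaving out 1 library gave 26 to 78 and 52 to 203. Among named genes the call of the difference was lost by Ccng1 and Dcxr on deposited FPKM, by these and Cdkn1a (1.41) and Cxcl16 after quantile normalization, by Ccng1, Cxcl16, Dcxr, Nanog, Nkx2-9 and Npy with a pseudocount of 0.1, and by Ccng1, Cxcl16, Dcxr, H2afz, Nanog and Npy without a filter. Plk2 and Btg2 lost theirs with that pseudocount (1.73 and 2.11), without a filter and with the replicate block. With a pseudocount of 0.1 Nkx2-9 and Npy were at 2.90 and 1.81, so Nkx2-9 was larger. The cause was not tested.

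With the replicate number as a replicate block the KD counts were 4165 and 3904, and the difference counts 2 and 1, with 1 of the 182 genes still called. That gene was H2afv. The block left 1 and 4 residual degrees of freedom. It also ended the calls of Aqp11 (−0.93), Gata4 (−1.49 to −0.94) and Wdr5 (0.93). KD libraries of the 2 stages with the same number had correlations of their deviations of 0.0318 and 0.0336, and those with other numbers −0.0704 to 0.0782. Over the 14 libraries, 5 pairs of a KD and a control library shared a stage and a number, with correlations from 0.0140 to 0.206 (median 0.170), against −0.269 to 0.328 (median −0.0888) for the 19 other such pairs. KD morula replicate 6 stood at 0.180 and 0.328 with control morulae 7 and 8, and at −0.269 and −0.195 with control morulae 1 and 2. KD 2-cell replicate 1 stood at 0.201 and 0.193 with controls 1 and 2, and at −0.228 and −0.185 with controls 4 and 5. KD 2-cell replicate 2 lay between −0.0239 and 0.0140 with all controls of its stage. Not every pair with the same number was over 0.1 and the labels do not say what a number marks. The numbers were therefore not taken as pairs, and what such libraries share was not tested.

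Leaving out 1 library took the calls of Aqp11, Hist1h4i and Wdr5 away in at least 1 fit and added calls of Atp1b1, Fdft1, Mpc1, Snrpe, Srcap, Srsf7 and Tfap2c. Among named genes, signs changed in those that were not called, apart from Atp5g1 (1.21). After quantile normalization the changes were −0.057 for Atp5g1, −0.24 for Atp1b3, −0.64 for Birc5, −0.79 for Cbx3, −0.74 for Ccnb1, −0.54 for Cenpa, 0.0262 for Cxcl16, −0.34 for Dppa4, −0.25 for Epcam, −0.10 for Mpc1, −0.63 for Obox6, −0.25 for Polr1d, −0.27 for Snrpe, −0.67 for Sp110, −0.19 for Srsf7 and 0.0766 for mt-Atp6. With the replicate block they were −0.0016 for Cenpa and 0.0425 for Mbd3, and in the fit over 22 libraries −0.0355 for Dppa3 and −0.0493 for Sp110. Leaving out 1 library took Cxcl16 from −0.37 to 0.11, Dpy30 from −0.22 to 0.0736, Mbd3 from −0.18 to 0.13, Mrpl40 from −0.25 to 0.0227 and Sp110 from −0.0079 to 0.37. The cause was not tested. Quantile normalization also took the calls of Aqp11 (−0.91), Cox5a (0.74), Cox8a (0.25), H3f3a (0.31), Mdh2 (0.53), Nhp2 (0.74), Pdhb (0.67), Rars (0.38), Rbbp7 (0.15), Rps3a1 (0.88) and Wdr5 (0.46), and added those of Cnot8 (−1.18), Dpy30 (−1.04), H3f3b (−1.27), Kdm5b (−1.03), Mrpl40 (−1.05) and Ruvbl1 (−1.37). Of the list medians that kept their sign it moved 9 by over 1.5 times: cytoplasmic ribosomal proteins (2.77 to 1.81), ribosome biogenesis (0.74 to 0.32), splicing (0.67 to 0.08), DNA replication (0.71 to 0.47), histone variants (0.91 to 0.34), the TCA cycle (1.05 to 0.68), primitive endoderm (0.11 to 0.33), DNA methylation (−0.54 to −0.34) and H3K4 methylation (−0.38 to −0.68). At an FPKM minimum of 5 the list medians of glycolysis (−0.03), Hippo (−0.90), DNA methylation (1.16) and ATF4 genes (0.22) took the other sign, and without a filter those of primitive endoderm (0.11 to −0.01) and the X inactivation centre (2.58 to −0.02) did. Of the other list medians, 10 and 11 moved by over 1.5 times under these filters. The fit over 22 libraries moved 6 by as much and the replicate block 4. A pseudocount of 0.1 moved 4, namely the p53 list (1.23 to 1.87), DNA methylation (−0.54 to −0.91), the X inactivation centre (2.58 to 4.66) and primitive endoderm (0.11 to 0.18).

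Depth is unknown, the KD groups hold 3 libraries each, and the labels do not say whether libraries came from separate cultures. The methods of the study say in general that its experiments were repeated, without naming these libraries, so p-values describe these libraries. Changes of low genes are understated by the pseudocount, and the values of genes with shared sequence are uncertain. The KD and control embryos of a stage were not compared by a test here.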
